A study of Homo sapiens with 12 samples.

Results

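The comparison set 3 EU-seq libraries labelled shCDK12+OHT against 3 labelled shNT+OHT, which are 6 of the 12 libraries of the series and were chosen by their labels alone. All 6 came from U2OS-MycER cells, which derive from a human osteosarcoma and express a chimera of Myc and the estrogen receptor. One group expressed an shRNA against CDK12 and the other a non-targeting shRNA, each after viral infection and with doxycycline at 1 µg/mL, and in both MycER was activated with 300 nM 4-hydroxytamoxifen (OHT) for 40 h. The cells were then held in nocodazole at 100 ng/mL for 8 h, mitotic cells were shaken off, and collection followed 12 h after release, with 0.5 mM 5-ethynyl-uridine (EU) in the last 2 h. The question was which genes and pathways differ in newly made RNA between CDK12-silenced and control cells while Myc is active.

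EU is built into RNA during the pulse and lets that RNA be tagged with biotin, captured and sequenced, so that the counts follow recent transcription more than the pool of finished mRNA. CDK12 is a kinase that works with cyclin K and phosphorylates the tail of RNA polymerase II (Pol II) during elongation. It is best known for sustaining the full-length transcription of long genes of the DNA damage response, among them BRCA1, ATR and FANCI. Myc pairs with MAX on the E-box and drives genes of ribosome production, nucleotide synthesis and growth.

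The table holds raw counts per gene, and the totals ran from 1251695 to 3666406 counts in shNT+OHT and from 5378438 to 10447836 in shCDK12+OHT. The 2 groups therefore differ in depth, and low genes are measured less precisely in shNT+OHT. Within shNT+OHT, replicate 1 stood apart from the other replicates, with a chi-square per degree of freedom of 8.57 and 9.31 against replicates 2 and 3, while those 2 differed from each other by 3.799 and the shCDK12+OHT replicates by 2.75 to 3.15. The labels do not say whether replicates were separate cultures, so that p-values measure the spread between these libraries, which may be technical. Levels are CPM, counts scaled to library size with TMM factors, and fold changes are relative to all genes, since no spike-in counts were at hand. A global fall in RNA synthesis would thus not be seen.

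CDK12 itself was lower in the silenced libraries of this comparison. It stood at 427, 351 and 391 CPM in shNT+OHT and at 215, 206 and 218 CPM in shCDK12+OHT. All silenced libraries were below all controls, a 1.84-fold lower level (log2 fold change -0.88, SE 0.11, adjusted p = 1.07e-04 from the quasi-likelihood test of edgeR, adjusted after Benjamini and Hochberg). Without OHT the label was not matched in this way. With all 12 libraries scaled together, the shCDK12 label without OHT went with 289 ± 10.9 CPM of CDK12 and shNT with 304 ± 17.4 CPM (SD, n = 3), so every direction below holds for the libraries as labelled. CDK13, the close relative of CDK12, was at 134 to 158 CPM in shNT+OHT and 161 to 176 CPM in shCDK12+OHT and did not pass the test (log2 fold change 0.23, SE 0.12, adjusted p = 0.135 from edgeR). CCNK, which encodes cyclin K, was at 33.3 to 50.6 CPM and 54.4 to 66.5 CPM (log2 fold change 0.52, SE 0.17, adjusted p = 0.0288 from edgeR). That call was lost with DESeq2, with upper-quartile normalization, with the gene span trend removed and without any of 5 single libraries. MYC counts may hold reads of the MycER transgene, and they overlapped between the groups at 1680 to 2166 CPM and 1998 to 2089 CPM (log2 fold change 0.09, SE 0.10, adjusted p = 0.518 from edgeR). The sign of the MYC value turned without shNT+OHT replicate 2, where it was -0.04. With all 12 libraries scaled together, MYC was at 1124 ± 89.8 CPM in shCDK12 without OHT and 2093 ± 112 CPM in shNT (SD, n = 3).

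**Figure D1:**
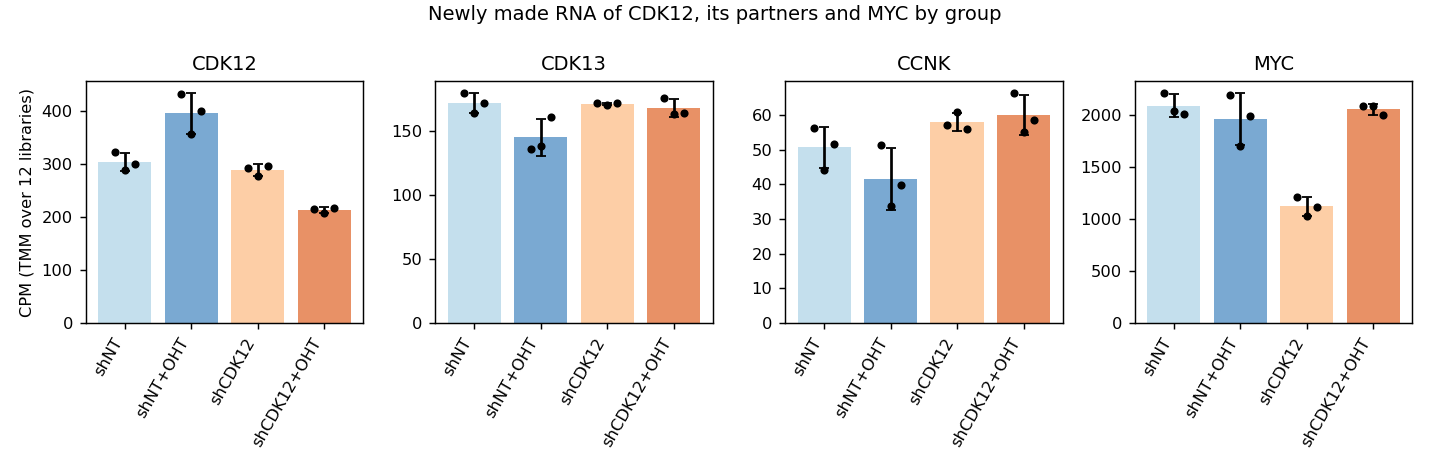
CPM (y axis, scaled over all 12 libraries) of CDK12, CDK13, CCNK and MYC in the 4 groups of the series (x axis), with bars for the mean, error bars for the SD and points for the 3 libraries of a group. CDK12 lies near 214 CPM in shCDK12+OHT against 397 CPM in shNT+OHT, and MYC is near 2000 CPM in both.

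The osteosarcoma origin was checked on marker genes. RUNX2 (113 to 144 CPM in shNT+OHT, 107 to 110 CPM in shCDK12+OHT), SPARC and COL1A1 were present, TWIST1 was at 0 in every library, and BGLAP and COL1A2 were at or near 0. The summed level of 10 mesenchymal and osteosarcoma markers was 1020 to 1120 CPM in shNT+OHT and 587 to 607 CPM in shCDK12+OHT, and that of 6 epithelial markers was 681 to 837 CPM and 995 to 1070 CPM. Most of the drop in the mesenchymal sum came from FN1 (305 to 387 CPM and 87.0 to 108 CPM) and VIM (302 to 339 CPM and 169 to 175 CPM). SPARC was at 118 to 138 CPM in shNT+OHT and 117 to 129 CPM in shCDK12+OHT. Of the epithelial markers, KRT8 was at 312 to 333 CPM in shNT+OHT and 330 to 381 CPM in shCDK12+OHT. KRT18 was at 347 to 494 CPM and 505 to 578 CPM. KRT19 was at 0 throughout, EPCAM reached at most 2.82 CPM, and 6 blood markers summed to under 1 CPM in each library. Whether the shift between the marker sums is related to the gene groups described below was not tested.

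In shCDK12+OHT against shNT+OHT, 5145 of 11120 tested genes (46.3%) had an adjusted p under 0.05 in edgeR's quasi-likelihood test. Of these 2673 rose (24.0% of tested genes) and 2472 fell (22.2%). The even split between directions depended on the scaling, with rises making up 52.0% of the calls here, 46.0% with DESeq2 and 46.9% with upper-quartile normalization. The median log2 fold change of all tested genes was 0.04. Changes beyond 2-fold were found at 1014 genes that rose and 716 that fell. The counts of each gene list below are read against the 24.0% and 22.2% of all genes. Some lists share members, so their counts are not separate results. PPAN is in the lists of Myc targets and ribosome assembly, and MTHFD1L in those of Myc targets and nucleotide synthesis.

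Among called genes with a mean normalized count of at least 100 and no overlap between the groups, the largest falls came at genes of varied function. MAGEA3, a cancer-testis antigen, fell from 66.7, 51.2 and 62.1 CPM to 5.70, 6.57 and 5.07 CPM (log2 fold change -3.37, SE 0.20, adjusted p = 2.49e-06 from edgeR). FUT1, a fucosyltransferase, fell from 106 to 127 CPM to 14.7 to 17.8 CPM (log2 fold change -2.86). SLC29A2, a nucleoside transporter, fell from 88.5 to 122 CPM to 19.4 to 22.1 CPM (log2 fold change -2.40), and the neuronal surface protein gene LRRN1, the antisense RNA PROSER2-AS1, the vault RNA VTRNA1-1 and MIR3648-1 had log2 fold changes of -2.44, -2.46, -2.49 and -2.42. MIR3648-1 ranged from 424 to 1125 CPM in shNT+OHT, and PROSER2-AS1 overlaps PROSER2, so their counts are uncertain.

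The largest rises were listed under the same limits. DCAF8L2 went from 4.94, 0.81 and 1.13 CPM to 44.5, 52.9 and 58.7 CPM (log2 fold change 4.31, SE 0.38, adjusted p = 1.72e-05 from edgeR). Its fold change ran from 3.77 to 5.57 on the log2 scale with 1 library left out. SAMD9, an interferon-inducible restriction factor, went from 29.9, 87.7 and 80.2 CPM to 575, 606 and 616 CPM (log2 fold change 3.23, SE 0.29, adjusted p = 1.83e-05 from edgeR). LGR4, a receptor for R-spondins in Wnt signalling, rose by 3.32 on the log2 scale, with 2.47 to 16.2 CPM in shNT+OHT and 51.7 to 63.4 CPM in shCDK12+OHT. The kinase NEK10, the transcription factor PROX1, the deubiquitinase OTUD1, EFR3B, KIF13B and SARAF were also among the 10 largest, at log2 fold changes of 2.50 for OTUD1 to 3.22 for KIF13B. The groups did not overlap at any of these genes, which the rule for naming them required. Of the 206 genes the naming rules select, 42 had a mean normalized count of 32 or less in 1 of the groups and passed the filter through the other, so they had to differ to be tested. Among those named here, DCAF8L2, ZNF597, H4C4, H2BC8, FANCL, DKK1, RNF43, MMP13, MMP19, ADAMTS15, COL5A2, MAGI2, PDE4D and BMAL1 were low in shNT+OHT. MAGEA3, FGF21, PPAN, ACTA2 and HLF were low in shCDK12+OHT. EFR3B, PROX1 and LGR4 lay barely above 32 in shNT+OHT, at mean normalized counts of 32.4, 32.6 and 32.7, and NEK10 was at 41.2.

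**Figure D2:**
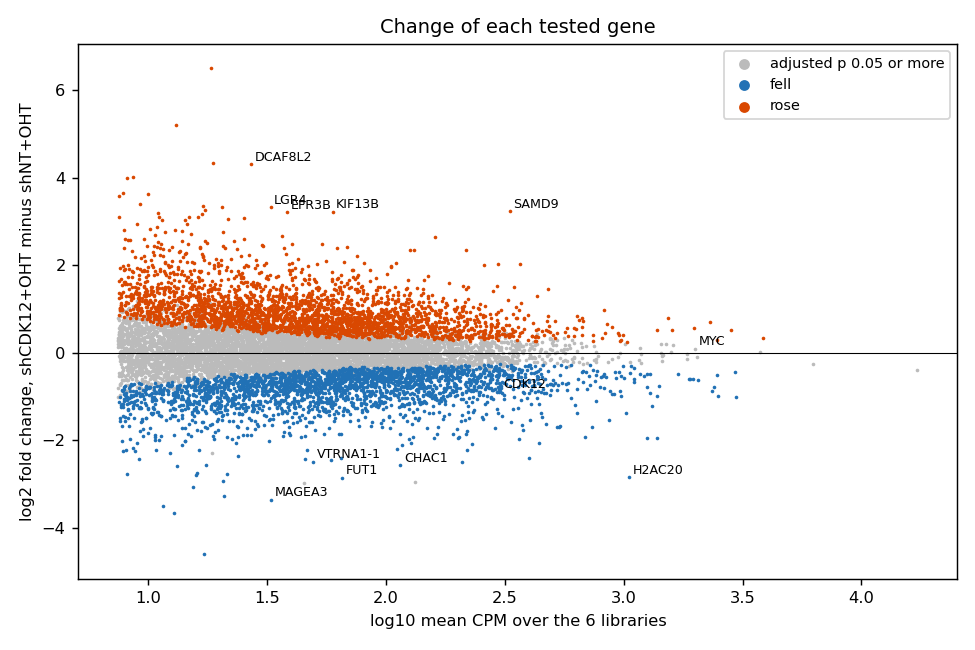
Log2 fold change of shCDK12+OHT against shNT+OHT (y axis) against log10 mean CPM over the 6 libraries (x axis) for 11120 tested genes, with 2673 that rose in orange, 2472 that fell in blue and the others in grey. The labelled falls reach MAGEA3 at -3.37 and the labelled rises DCAF8L2 at 4.31, while MYC lies near 0.

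Genes of mitosis fell together. Of 55 tested, 0 rose and 38 fell, with a median of -0.68 on the log2 scale (all genes: 0.04), and the median per library lay between -0.14 and 0.09 in shNT+OHT and between -0.69 and -0.60 in shCDK12+OHT relative to the shNT+OHT mean. In bulk libraries, fewer cells in a phase of the cycle and less RNA per cell cannot be told apart. AURKB, the kinase of the chromosomal passenger complex, was at 69.7, 56.9 and 59.8 CPM in shNT+OHT and at 15.3, 18.1 and 17.4 CPM in shCDK12+OHT. This is a log2 fold change of -1.88 (SE 0.17, adjusted p = 1.81e-05 from edgeR). SKA3, which ties kinetochores to microtubules, fell by 1.59 on the log2 scale, and the microtubule-binding GTSE1 had a log2 fold change of -1.399. CDCA8, a partner of AURKB, fell from 111 to 158 CPM to 61.1 to 64.7 CPM (log2 fold change -1.13), and the condensin subunit gene SMC4 from 154 to 292 CPM to 100.2 to 111 CPM (log2 fold change -1.07).

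Promoters of mitotic genes are known for the CHR, an element bound by DREAM and MuvB complexes, and the letters TTTGAA were searched on both strands from 250 bases before to 50 bases after the annotated start, a search chosen after the changes were known. They occurred in 37 of 47 mitotic promoters at hand (78.7%), in 15.4% of all 27305 promoters and in 9.92% of the promoters of tested genes. The share was 10.4% among genes that fell and 9.78% among genes that rose, both close to that of all tested genes. The 3 mitotic genes with the largest falls that hold it upstream of the start are shown from RefSeq (GRCh38.p14), 5′ to 3′ on the strand of the gene, with the element in capitals. The stretches lie at chr22:46296822-46296869 (plus strand, GTSE1), chr1:37692468-37692515 (plus strand, CDCA8) and chr3:160399555-160399602 (plus strand, SMC4).
GTSE1: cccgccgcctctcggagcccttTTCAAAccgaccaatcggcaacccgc
CDCA8: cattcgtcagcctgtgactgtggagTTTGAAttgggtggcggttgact
SMC4: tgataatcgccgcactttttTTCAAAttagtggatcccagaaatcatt

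Checkpoint, replication and repair genes leaned the same way with smaller medians. Of 23 checkpoint kinases and activators 3 rose and 13 fell (median -0.56), led by PKMYT1, the inhibitory kinase of CDK1 (log2 fold change -1.59), by RAD9A of the 9-1-1 clamp (-1.22) and by MDC1, the γH2A.X reader (-1.21). ETAA1, an activator of ATR, rose by 1.16 from 46.0, 115 and 98.0 CPM to 185, 187 and 193 CPM. Of 56 genes of origin licensing and the fork 5 rose and 22 fell (median -0.29, and -0.45 with the span trend removed). The GINS subunits GINS1 and GINS4 and the polymerase delta subunit POLD2 had log2 fold changes of -1.87, -1.30 and -1.25, while the origin recognition gene ORC4 rose by 1.04 on the log2 scale.

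Of 44 genes of homologous recombination and the Fanconi pathway 3 rose, 17 fell and 24 did not pass (median -0.24, and -0.42 at equal depth). EME1, a partner of the MUS81 nuclease, fell from 47.1 to 71.0 CPM to 16.7 to 17.8 CPM (log2 fold change -1.84), and UBE2T, the E2 enzyme of the pathway, fell by 1.47. FANCL, its E3 ligase, was at 2.47, 6.50 and 1.42 CPM in shNT+OHT and 19.95, 18.2 and 15.4 CPM in shCDK12+OHT (log2 fold change 2.701, and 2.26 to 3.17 with 1 library left out), and passed the filter only through the second group. FANCL overlaps VRK2, which rose by 0.66, and EME1 overlaps LRRC59 in the annotation.

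Of 6 genes picked for their textbook link to CDK12, and not by the naming rule, 4 fell and 2 did not pass the test. BRCA1 was at 46.0, 53.6 and 45.6 CPM in shNT+OHT and at 24.4, 26.2 and 30.4 CPM in shCDK12+OHT (log2 fold change -0.83, SE 0.17, adjusted p = 0.00222 from edgeR). ATR fell from 18.8 to 28.1 CPM to 11.2 to 15.2 CPM (log2 fold change -0.92, adjusted p = 0.00764 from edgeR). FANCI and FANCD2, the pair that is monoubiquitinated at crosslinks, had log2 fold changes of -0.88 and -0.75. ATM (log2 fold change 0.35, adjusted p = 0.163 from edgeR) and CHEK1 (-0.41, adjusted p = 0.0666) did not pass the test.

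Replication-dependent histone genes, which are expressed in S phase, fell most of all lists by the median. Of 63 genes counted, 35 passed the filter on low counts, and of these 30 fell, 4 rose and 1 did not pass, with a median log2 fold change of -1.67 and library medians from -1.82 to -1.49 in shCDK12+OHT. H2AC20 fell from 1942, 1446 and 2147 CPM to 258, 273 and 238 CPM (log2 fold change -2.85, SE 0.14, adjusted p = 1.00e-06 from edgeR). In the opposite direction, H4C4 went from 2.55 to 4.01 CPM to 30.1 to 33.5 CPM (log2 fold change 3.26), and H2BC8 from 4.82 to 6.50 CPM to 35.0 to 36.9 CPM (log2 fold change 2.75). Histone genes are near copies of each other, so reads could be split among them, and those that rose had passed the filter through the shCDK12+OHT libraries.

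Myc targets were lower in the libraries labelled shCDK12+OHT than in those labelled shNT+OHT. Of 58 tested members of a list written from general knowledge 2 rose and 46 fell, with a median of -0.72. Library medians ran from -0.69 to -0.67 in shCDK12+OHT and from -0.06 to 0.04 in shNT+OHT. For the libraries labelled shCDK12 without OHT, the list median against the same controls was -0.09. The reason for this difference was not tested. SORD, the sorbitol dehydrogenase, fell from 55.9, 31.7 and 31.7 CPM to 5.84, 7.32 and 10.7 CPM (log2 fold change -2.37, SE 0.29, adjusted p = 1.28e-04 from edgeR). The transcription factor TFAP4 and the ribosome assembly factor PPAN had log2 fold changes of -1.65 and -1.67, the latter at only 12.6 CPM in shNT+OHT and overlapping P2RY11. NCL, the nucleolin gene, which the naming rule did not select, fell from 866 to 922 CPM to 473 to 524 CPM (log2 fold change -0.84). E2F2 rose from 31.2 to 37.7 CPM to 91.6 to 96.4 CPM (log2 fold change 1.44).

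In the network of Myc and its partners, 5 of 12 tested genes rose and 2 fell. The repressors MXD4 and MXD1, which compete with Myc for MAX, rose by 1.98 and 1.08 on the log2 scale. MXD4 was at 12.0, 8.93 and 10.2 CPM in shNT+OHT and 42.5, 42.8 and 40.8 CPM in shCDK12+OHT. MLX, the MAX-like partner of MondoA, fell by 0.78, and MAX itself had a log2 fold change of 0.09 (SE 0.12, adjusted p = 0.579 from edgeR), a value that turned to -0.15 with the gene span trend removed and to -0.01 without shNT+OHT replicate 3.

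The canonical E-box CACGTG, which reads the same on both strands, was in 17 of 46 Myc target promoters (37.0%), in 10.4% of promoters of tested genes and in 7.43% of all promoters. Among genes that fell the share was 11.8%, and among genes that rose it was 9.88%. The 3 Myc targets with the largest falls that hold it upstream of the start are shown, with the E-box in capitals, from chr1:11060190-11060237 (minus strand, SRM), chr6:150866312-150866359 (plus strand, MTHFD1L) and chr14:20455101-20455148 (plus strand, APEX1) of GRCh38.p14.
SRM: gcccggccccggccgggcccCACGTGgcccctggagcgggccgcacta
MTHFD1L: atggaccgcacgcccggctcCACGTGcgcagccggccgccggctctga
APEX1: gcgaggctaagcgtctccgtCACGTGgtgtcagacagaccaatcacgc
SRM, the spermidine synthase, fell from 47.3 to 60.2 CPM to 20.7 to 22.4 CPM (log2 fold change -1.33). MTHFD1L of mitochondrial one-carbon metabolism fell from 114 to 118 CPM to 44.0 to 51.5 CPM (log2 fold change -1.27), and APEX1, the abasic site endonuclease, from 233 to 330 CPM to 147 to 171 CPM (log2 fold change -0.87).

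Lists of ribosome assembly and ribosomal protein genes had more falls than rises. Of 91 nucleolar assembly factors 3 rose, 58 fell and 30 did not pass (median -0.56, library medians -0.56 to -0.54 in shCDK12+OHT). EBNA1BP2, a factor of the large subunit, was at 266, 227 and 266 CPM in shNT+OHT and 72.9, 78.8 and 81.7 CPM in shCDK12+OHT (log2 fold change -1.71, SE 0.12, adjusted p = 4.77e-06 from edgeR). RRP1B fell by 1.54, while RPF1 rose by 0.58, a call lost at equal depth. Of 34 subunits and factors of RNA polymerases I and III 1 rose, 13 fell and 20 did not pass (median -0.30), among them POLR1G, POLR1E and POLR1C at -1.34, -0.99 and -0.77. POLR1G overlaps ERCC1, which also fell, to a log2 fold change of -1.30. Of 84 cytosolic ribosomal protein genes 7 rose, 39 fell and 38 did not pass (median -0.38), and of 73 mitochondrial ones 3 rose, 29 fell and 41 did not pass (median -0.35). RPL38 fell from 269 to 377 CPM to 126 to 136 CPM (log2 fold change -1.36), and the processed copy RPL10L rose by 1.70, which is uncertain because ribosomal protein genes have many near copies.

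Nucleotide synthesis followed. Of 24 genes of purine and pyrimidine synthesis 0 rose and 17 fell, with a median of -0.72. DHODH and UMPS, enzymes of the pyrimidine pathway, had log2 fold changes of -1.41 and -1.18. CAD, which starts that pathway, was at 202, 141 and 167 CPM in shNT+OHT and at 73.0, 72.1 and 82.6 CPM in shCDK12+OHT (log2 fold change -1.18, SE 0.15, adjusted p = 1.31e-04 from edgeR). The polyamine genes were mixed, with 4 of 13 that rose and 2 that fell. SAT1, which breaks polyamines down, and OAZ1, the antizyme that limits their synthesis, rose by 1.04 and 0.89.

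Genes under the stress factor ATF4, which feeds amino acid supply, fell further than the ribosomal lists by the median. Of 34 tested 2 rose and 25 fell (median -1.01, library medians -0.95 to -0.87 in shCDK12+OHT). At equal depth the median was -0.73, less far down than those of tRNA synthetases (-0.88) and nucleotide synthesis (-0.88). CHAC1, an enzyme that degrades glutathione, fell from 244, 138 and 209 CPM to 34.1, 35.9 and 30.1 CPM (log2 fold change -2.57, SE 0.19, adjusted p = 6.91e-06 from edgeR). FGF21, a metabolic hormone, fell from 29.0, 17.1 and 18.1 CPM to 2.04, 2.44 and 0.91 CPM (log2 fold change -3.51, SE 0.36, adjusted p = 3.93e-05 from edgeR). CBS of the transsulfuration pathway fell by 1.81, and the stress hormone gene GDF15 rose by 0.85. Outside the naming rule, the asparagine synthetase ASNS and the serine enzymes PSAT1 and PHGDH had log2 fold changes of -1.72, -1.70 and -1.48.

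The composite element of ATF4 and C/EBP factors, searched as TGATGCAA on both strands after the changes were known, occurred in 2 of 29 promoters of the list (6.90%), in 0.923% of all promoters and in 0.490% of promoters of tested genes. Both are shown with the element in capitals, here as its reverse complement, from chr19:48755450-48755497 (plus strand, FGF21) and chr15:40953242-40953289 (plus strand, CHAC1) of GRCh38.p14.
FGF21: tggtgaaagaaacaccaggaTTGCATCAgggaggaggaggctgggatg
CHAC1: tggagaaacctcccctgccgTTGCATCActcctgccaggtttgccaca
These are the 2 members with the largest falls in the list.

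Aminoacyl-tRNA synthetases, which charge tRNAs, fell at 17 of 23 genes and rose at 1 (median -0.73). FARSB, GARS1 and WARS1 had log2 fold changes of -1.41, -1.21 and -1.10, and QARS1 rose by 0.94. Of 44 translation factors 2 rose and 23 fell (median -0.36), with the eIF2B subunits EIF2B2 and EIF2B4 at -1.28 and -1.10 and the inhibitor EIF4EBP1 at -1.08. EIF4G2, a factor of cap-independent initiation, rose by 0.58.

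The transcription machinery was divided. Of 12 Pol II subunits 1 rose and 5 fell. POLR2A, the catalytic subunit whose tail CDK12 phosphorylates, rose from 136, 92.6 and 117 CPM to 321, 325 and 340 CPM (log2 fold change 1.496, SE 0.13, adjusted p = 1.91e-05 from edgeR), while the small subunits POLR2L and POLR2H were at -1.85 and -1.47. Of 20 genes of P-TEFb and pausing 5 rose and 7 fell. HEXIM1, the inhibitor of P-TEFb, was at 269, 236 and 265 CPM in shNT+OHT and at 744, 719 and 647 CPM in shCDK12+OHT (log2 fold change 1.45, SE 0.10, adjusted p = 5.51e-06 from edgeR). MLLT3 of the super elongation complex rose by 2.11, and NELFE, a subunit of the negative elongation factor, fell by 1.42 on the log2 scale.

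Of 36 elongation and termination factors 6 rose and 9 fell (median -0.15, and -0.28 at equal depth). CTR9, the scaffold of the PAF1 complex, rose by 1.22 and SUPT16H, a histone chaperone of FACT, fell by 0.86. Mediator and Integrator genes had a median of 0.06, which turned to -0.06 at equal depth and -0.08 with the span trend removed, with 8 of 45 that rose and 6 that fell. INTS9 and the Mediator cyclin CCNC rose by 1.31 and 1.26. Of 53 splicing factors 1 rose and 22 fell (median -0.30), led by SF3A2, SNRPA and SNRPB at -1.35, -1.14 and -1.04. The rise was HNRNPH1, at 0.39 (adjusted p = 0.0487 from edgeR), a call that was lost in 12 of the 14 alternatives.

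Lipid genes fell in part. Of 37 genes of cholesterol and fatty acid synthesis 1 rose and 15 fell (median -0.29). SCD, the stearoyl-CoA desaturase, fell from 1290, 1249 and 1313 CPM to 423, 437 and 477 CPM (log2 fold change -1.53, SE 0.09, adjusted p = 2.49e-06 from edgeR). The fatty acid synthase FASN and the desaturase FADS2 were at -1.37 and -1.31. Nuclear genes of the respiratory chain showed no lean, with 9 of 66 that rose and 9 that fell, and mitochondrial import genes fell at 11 of 28 and rose at 2, with the pore subunit TOMM40 at -1.37. Glycolysis and hypoxia genes split into 16 that rose and 12 that fell of 42. BNIP3L, a mitophagy receptor, rose by 2.22, and TXNIP, a brake on glucose uptake, fell by 1.41. Of 34 p53 targets 14 rose and 9 fell, with TP53INP1 up by 1.22 and PLK3 down by 1.35.

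Cytoskeleton and matrix genes changed in both directions. Of 41 SRF-linked actin and adhesion genes 5 rose and 22 fell (median -0.44). TAGLN, a smooth muscle actin-binding protein, was at 435, 298 and 379 CPM in shNT+OHT and 89.5, 95.9 and 77.7 CPM in shCDK12+OHT (log2 fold change -2.08, SE 0.15, adjusted p = 5.51e-06 from edgeR). ZYX, the focal adhesion protein zyxin, and ACTA2, smooth muscle actin, had log2 fold changes of -1.47 and -1.58, and MYL12A, a myosin light chain, rose by 0.95. Among markers of the mesenchymal state, FN1 fell from 305 to 387 CPM to 87.0 to 108 CPM (log2 fold change -1.78) and VIM by 0.91, while SPARC did not pass the test (log2 fold change -0.03, adjusted p = 0.877 from edgeR). Among epithelial markers the claudin gene CLDN4 rose from 13.0 to 24.1 CPM to 97.7 to 110 CPM (log2 fold change 2.40). KRT18 was at 347 to 494 CPM in shNT+OHT and 505 to 578 CPM in shCDK12+OHT. KRT8 (log2 fold change 0.17, adjusted p = 0.180 from edgeR) and CDH1 (-0.30, adjusted p = 0.396 from edgeR) did not pass.

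Among collagens 16 of 44 passed the filter, and of these 4 rose and 5 fell, with COL6A3 at -1.54 and COL5A2 at 1.69. Of 26 YAP, TAZ and TEAD targets 7 rose and 6 fell, with a median of 0.07 that turned to -0.09 at equal depth and -0.11 with the span trend removed. The receptor tyrosine kinase AXL fell from 285 to 379 CPM to 133 to 137 CPM (log2 fold change -1.30), and the tissue factor gene F3 by 1.03, while TEAD2, a factor that YAP and TAZ bind, rose from 5.69 to 16.1 CPM to 27.2 to 32.4 CPM (log2 fold change 1.30). Of 33 genes of TGF-beta signalling 12 rose and 6 fell (median 0.21, and 0.04 both at equal depth and with the span trend removed). LTBP2, which binds latent TGF-beta complexes, and the activin subunit INHBA were at -1.97 and -1.16, whereas ID2, an inhibitor of basic helix-loop-helix factors, rose from 10.5 to 12.7 CPM to 35.0 to 42.0 CPM (log2 fold change 1.72). Matrix proteases rose at 11 and fell at 5 of 29 that passed the filter, out of 56 counted (median 0.30, but 0.00129 at equal depth and 0.09 with the span trend removed), with the collagenase MMP13 at 2.06, MMP19 at 2.30, ADAMTS15 at 2.07 and the gelatinase MMP2 at -1.34.

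Wnt and Notch genes leaned upward. Of 38 tested 19 rose and 3 fell, with a median of 0.46 and library medians from 0.41 to 0.50 in shCDK12+OHT. At equal depth the median was 0.28. DKK1, a secreted Wnt inhibitor, was at 0.31, 3.25 and 3.97 CPM in shNT+OHT and 11.3, 17.5 and 14.0 CPM in shCDK12+OHT (log2 fold change 2.57, and down to 1.91 with 1 library left out). It passed the filter only through shCDK12+OHT. The receptor gene FZD3 rose by 2.39 and RNF43, a ligase that removes Frizzled receptors, by 2.36, while the ligand gene WNT10A fell by 0.98, a call that was lost without shCDK12+OHT replicate 2. Of 15 HOX genes that passed the filter, out of 39 in the table, 8 rose and 3 fell (median 0.78, and 0.20 at equal depth). HOXC13 rose from 41.4 to 58.3 CPM to 129 to 140 CPM (log2 fold change 1.43), and HOXC8 fell by 1.15.

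Lysosome and autophagy genes rose at 19 and fell at 6 of 46 (median 0.25, with 0.43 at equal depth and 0.16 with the span trend removed). GABARAPL1, a member of the ATG8 family that coats autophagosomes, was at 124, 144 and 192 CPM in shNT+OHT and 384, 413 and 435 CPM in shCDK12+OHT (log2 fold change 1.42, SE 0.15, adjusted p = 4.95e-05 from edgeR). The proton pump subunit gene ATP6V1A rose by 1.14. Of 46 interferon and antigen presentation genes 27 passed the filter, of which 8 rose and 3 fell, with a median of 0.27 that was -0.01 at equal depth. TAP1, the peptide transporter, and B2M, the light chain of class I molecules, rose by 1.33 and 1.15, and IFIT5 fell by 1.04. Zinc finger genes of the ZNF series rose at 111 and fell at 65 of 396 (median 0.13, and 0.08 with the span trend removed), close to all genes. ZNF597 was at 2.16, 0.81 and 1.70 CPM in shNT+OHT and 32.7, 37.1 and 37.7 CPM in shCDK12+OHT (log2 fold change 4.35, and 4.17 to 4.57 with 1 library left out), and passed the filter only through the second group.

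**Figure D3:**
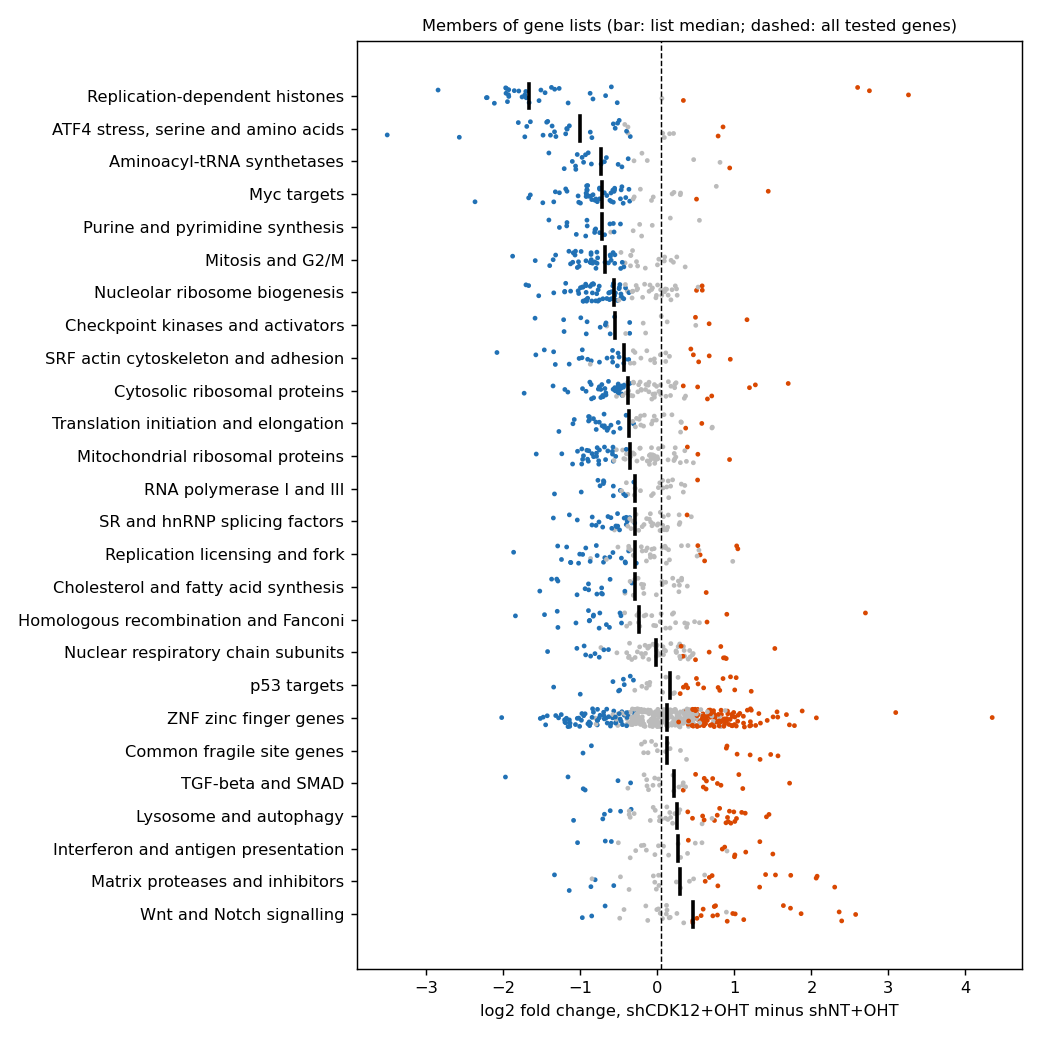
Log2 fold change (x axis) of each tested member of 26 gene lists (y axis), with genes that rose in orange, genes that fell in blue, others in grey, a black bar at each list's median and a dashed line at the median of all genes, 0.04. Histone, ATF4, tRNA synthetase, Myc target, nucleotide and mitosis lists lie left of the line, with medians from -1.67 to -0.68, and the Wnt and Notch list lies right of it at 0.46.

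The change also followed gene span, the length from the first to the last base of the annotated gene. Among genes under 5 kb, 16.6% of 1134 rose and 33.5% fell, with a median of -0.20. The medians were -0.13 at 5 to 20 kb, 0.07 at 20 to 50 kb, 0.14 at 50 to 100 kb and 0.28 at 100 to 200 kb. Among 784 genes over 200 kb, 36.0% rose and 9.95% fell (median 0.30). Short genes were thus lower and long genes higher, relative to the rest, in newly made RNA of shCDK12+OHT. The library medians of the groups did not overlap in the 5 classes above 5 kb, while among genes under 5 kb shCDK12+OHT replicate 2 (-0.10) lay just above shNT+OHT replicate 2 (-0.11). At equal depth the shortest and longest classes were at -0.26 and 0.27, and with upper-quartile normalization at -0.25 and 0.25. Of 21 tested common fragile site genes, with a median span of 863 kb, 7 rose and 2 fell. MAGI2, PDE4D and PARD3B rose by 1.57, 1.47 and 1.33. With the span trend removed, the list medians were -0.81 for mitosis, -0.74 for Myc targets, -1.49 for histones, -1.13 for ATF4 genes and 0.20 for Wnt and Notch genes, and that of the fragile site genes turned from 0.13 to -0.29.

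**Figure D4:**
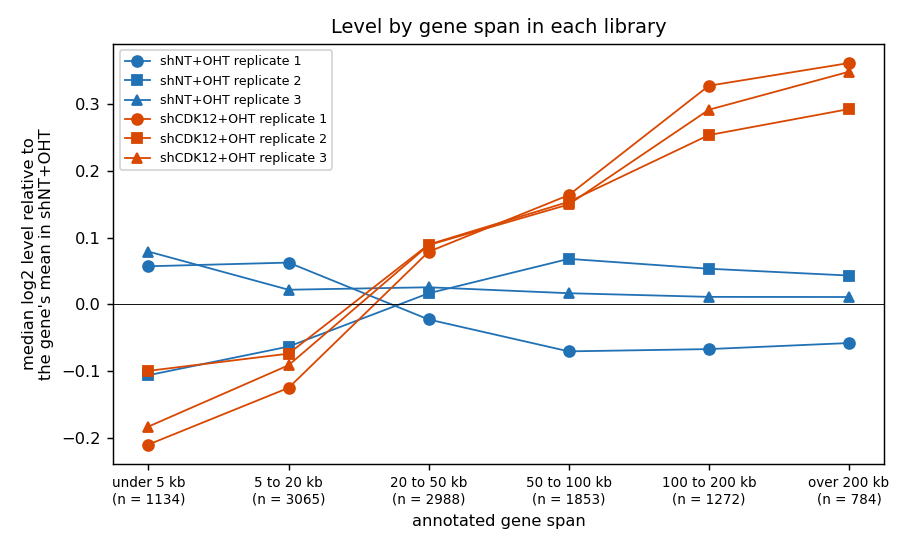
Median log2 level relative to each gene's mean in shNT+OHT (y axis) in 6 classes of gene span (x axis, number of tested genes in parentheses), with 1 line per library, blue for shNT+OHT and orange for shCDK12+OHT. In the class over 200 kb the silenced libraries lie from 0.29 to 0.36 and the controls from -0.06 to 0.04, and among genes under 5 kb shCDK12+OHT replicate 2 lies at the level of shNT+OHT replicate 2.

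The main lists did not rest on the control library that stood apart. Without shNT+OHT replicate 1, 0 rose and 45 fell of the mitosis list (median -0.84), 2 and 47 of the Myc targets (-0.70), 3 and 69 of the ribosome assembly factors (-0.61), 2 and 27 of the ATF4 genes (-0.90), 4 and 30 of the histones (-1.68), and 19 rose and 4 fell of the Wnt and Notch genes (0.49). Against the same 3 shNT+OHT libraries, the libraries labelled shCDK12 without OHT had list medians of -0.01 for mitosis, -0.09 for Myc targets, -0.08 for ribosome assembly, -0.68 for ATF4 genes, -1.31 for histones and 0.46 for Wnt and Notch genes. Both sets of values share these control libraries. Whether the shRNA, OHT or an exchange of labels underlies these differences was not tested.

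Some of the changes sat in runs of neighbouring genes. When the tested genes were ordered along each chromosome, 27 runs of at least 6 neighbours were found in which every gene was called in 1 direction, 9 that rose and 18 that fell, with 198 genes in all. The longest was a run of 21 genes on chromosome 8 from PPP2R2A to DCTN6, all of which rose, by 0.70 to 3.22 on the log2 scale (median 1.71). It holds KIF13B and SARAF of the 10 largest rises and BNIP3L, FZD3 and INTS9 named above. KIF13B was at 12.7, 12.2 and 10.2 CPM in shNT+OHT and 110, 108 and 106 CPM in shCDK12+OHT, and CLU, the clusterin gene, at 92.6 to 122 CPM and 415 CPM in all 3 libraries (log2 fold change 2.00). Relative to the shNT mean, the median of the 21 genes was -0.23 to -0.07 in shNT+OHT, 1.39 to 1.43 in the libraries labelled shCDK12 and 1.48 to 1.66 in shCDK12+OHT, so it was high in both groups labelled with the CDK12 shRNA, with or without OHT. A second run of 10 genes that rose, from SAMD9 to PDK4 on chromosome 7, had a median of 1.65. Relative to the shNT mean it was at -0.95 to -0.54 in shNT+OHT, 0.07 to 0.55 in the libraries labelled shCDK12 and 0.84 to 0.92 in shCDK12+OHT, so that both groups of the comparison departed from shNT there, in opposite directions. Copy number was not measured, and its part in these runs was not tested.

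**Figure D5:**
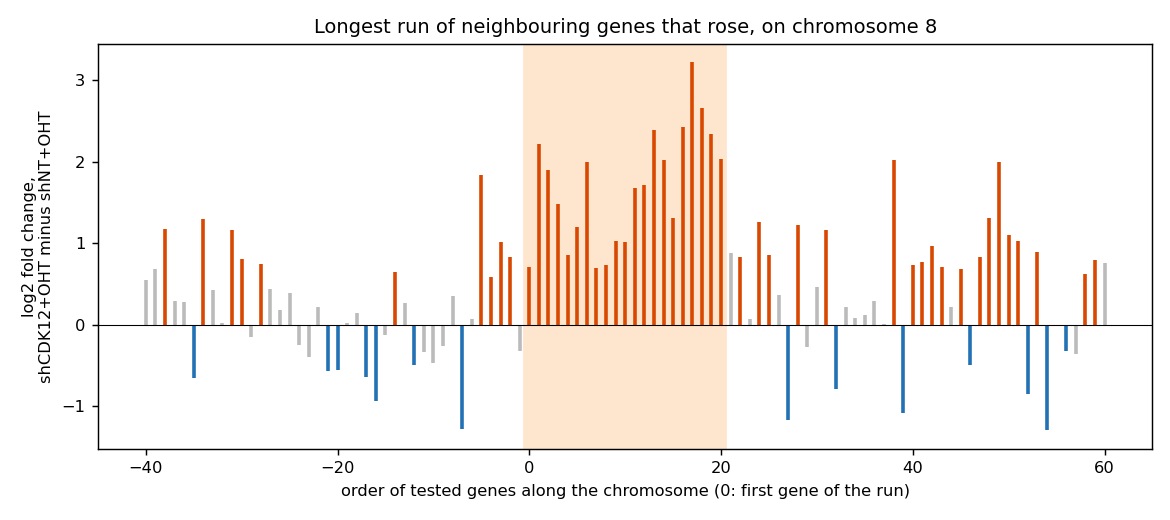
Log2 fold change of shCDK12+OHT against shNT+OHT (y axis) for tested genes in their order along chromosome 8 (x axis, 0 at PPP2R2A), with the run of 21 genes shaded, genes that rose in orange, genes that fell in blue and others in grey. Every gene in the shaded run lies at or above 0.70.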

How the data were processed

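The authors deposited 1 table of raw counts for 23434 genes by Entrez identifier, without normalization. The submitters' processing notes name STAR 2.7.5c, featureCounts 1.4.5-p1 and hg19; use of strand in counting is not given in the sources used here, so overlapping and antisense genes are uncertain. The table has no mouse rows, so scaling to the added mouse RNA was not done. Symbols (23284 genes) and gene spans came from RefSeq (GRCh38.p14) by identifier.

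The 6 libraries were fitted with edgeR 4.0.16 in R 4.3.3 (TMM, quasi-likelihood test, Benjamini-Hochberg adjustment, threshold 0.05) after leaving out genes whose mean normalized count was 32 or less. Levels are CPM, and library medians used log2(CPM + 0.5). On simulated counts of 11120 genes with 200 changed 2-fold, the fit recovered 152 and made 13 false calls among the unchanged genes. The simulation had far fewer changed genes than were called here, no span trend and no control library that stood apart. It therefore does not give the error rate of these data.

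The comparison, gene lists and rules were chosen with earlier results of these data known. Named genes are CDK12, CDK13, CCNK, MYC and MAX, the 10 largest rises and falls with an adjusted p under 0.05, a mean normalized count of at least 100 and no overlap of the groups, and up to 3 leading members of each list with 1 in the opposite direction; others are named as chosen outside the rule. Promoters were matched for 8986 of the tested genes, with the first listed start of each gene. The alternatives were DESeq2 1.42.0, upper-quartile normalization, other low-count filters, all 12 libraries in one fit, a replicate block, thinning to 1251695 counts per library, removal of the gene span trend by loess, and leaving out each library. Some genes that the rule selects are not reported here.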

Additional observations from a re-analysis of the deposited data

How the results depend on the processing

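CDK12 was lower and past the threshold in all alternatives, at a log2 fold change from -1.14 with the gene span trend removed to -0.83 without shNT+OHT replicate 1. At equal depth 3155 genes passed, 1398 of them higher, with 7387 genes tested. Leaving out 1 library at a time gave 3491 to 6073 genes, 1774 to 3082 that rose and 1711 to 2991 that fell. The lowest count came without shCDK12+OHT replicate 2 and the highest without shNT+OHT replicate 1. The other alternatives stayed within 1.5 times of the reported counts. Rises made up 42.6% of calls with the span trend removed, 44.3% at equal depth and 56.4% with no filter on low counts, against 52.0%.

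Of 205 named genes apart from CDK12, 185 kept sign and call in every alternative that tested them, 17 lost a call in at least 1 and 3 changed sign without ever having a call: CDK13 (-0.11 with the span trend removed), MAX (-0.15 with the span trend removed and -0.0137 to 0.146 with 1 library left out, the lowest without shNT+OHT replicate 3) and MYC (-0.0432 to 0.156 with 1 library left out, the lowest without shNT+OHT replicate 2). Of 55 lists with tested members, 39 kept the sign of their median throughout and 16 did not, among them collagens, glycolysis and hypoxia, the respiratory chain, Mediator and Integrator, P-TEFb, YAP targets and interferon genes; the cause was not tested. Libraries with equal replicate numbers did not deviate together, with correlations of 0.03, -0.11 and 0.04 for the same number. With the replicate block 4726 genes passed (2563 higher, 2163 lower) and CDK12 had a log2 fold change of -0.87. Depth limits calls at low genes, above all in shNT+OHT replicate 2.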

Other observations

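Circadian clock genes were split, with 6 of 20 that rose and 7 that fell. BHLHE41, a repressor of the clock, fell from 30.2, 35.7 and 46.5 CPM to 10.6, 8.54 and 11.1 CPM (log2 fold change -1.92, SE 0.23, adjusted p = 8.92e-05 from edgeR). NR1D1, which encodes the repressor REV-ERB alpha, fell by 1.48 and HLF by 2.11 on the log2 scale, while BMAL1 rose by 1.23. The BMAL1 call was lost without shNT+OHT replicate 3 and with the gene span trend removed. NR1D1 overlaps THRA on the annotation, and THRA had a log2 fold change of -0.04.

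Of the methylation and Polycomb genes 18 rose and 12 fell of 57 (median 0.16, and -0.00384 with the span trend removed). SUV39H1, the H3K9 methyltransferase of constitutive heterochromatin, fell from 158 to 209 CPM to 42.6 to 54.8 CPM (log2 fold change -1.86). HMOX1, heme oxygenase, rose by 1.36 and SLC7A11, the cystine importer, fell by 1.32, although both are targets of NRF2, whose list had 7 of 29 genes that rose and 9 that fell. Among proteasome genes 5 rose and 17 fell of 45 (median -0.16, and -0.28 at equal depth), among chaperones 6 rose and 21 fell of 47 (median -0.22), and among nuclear pore and transport genes 6 rose and 19 fell of 54 (median -0.18, and -0.39 with the span trend removed).

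By gene type, 51 of 328 long noncoding RNAs rose and 75 fell, and 8 of 76 snoRNAs rose and 19 fell, against 24.5% and 22.2% of protein-coding genes.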
